A study of Mus musculus with 18 samples.

Results

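C57BL/6J is the inbred mouse strain from which the reference genome was made, and its liver open chromatin is set here against that of 6 other inbred strains, DBA/2J, CBA/J, C3H/HeJ, BALB/cJ, AKR/J and A/J. Peaks of the 7 strains that overlapped or touched were merged into sites, autosomes only, and a strain was counted as called where at least 1 bp of a peak of that strain lay in the site. Of 50121 sites, 1653 were called in C57BL/6J only, 403 were missing in C57BL/6J only, and 13909 were called in all 7 strains and ranked by how high the C57BL/6J peak stood. These 3 classes hold 15965 sites. All mice were male and were fed an HF/HS diet, rich in fat and sucrose, for 8 weeks from 8 weeks of age. Liver from 2 C57BL/6J mice was compared with liver from 12 mice of the 6 other strains (2 per strain), and liver from 4 mice of the recombinant strains BXH2/TyJ and BXH19/TyJ (2 per strain) served as a further comparison. Each recombinant strain is 1 inbred line derived from a cross of C57BL/6J and C3H/HeJ, so that every segment of its genome comes from either parent. Which parent gave a segment was not analysed here.

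An open site is a stretch of DNA from which nucleosomes are displaced, usually where transcription factors or the transcription machinery sit. Promoters of widely used genes are often rich in CpG dinucleotides and open in most tissues, whereas distal sites such as enhancers are more often particular to a cell type. In hepatocytes, distal sites are known for binding HNF4A, FOXA and C/EBP proteins, which maintain the genes of lipid, bile acid, glucose and drug metabolism. FAIRE-seq fixes tissue with formaldehyde, recovers the DNA that is free of nucleosomes by phenol extraction and sequences it.

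Each strain has 1 deposited peak list that combines its 2 mice, so the values of a strain carry no replicate error, differences between strains are descriptions with no test, and the depth behind a peak is unknown from the files. The study lists filtered read numbers per library, which were lower for A/J, BALB/cJ, C3H/HeJ, CBA/J and DBA/2J than for C57BL/6J. The part of depth in the classes was not tested. The lists held 30598 peaks in C57BL/6J and 26769 (DBA/2J) to 30613 (CBA/J) in the other strains. Peak strength is given as the percentile of the authors' F-seq signal value within the list of its own strain, 100 being the strongest peak. A site without a peak can still be open below the threshold of the caller. Livers were measured whole, so that fewer cells with an open site and less opening per cell cannot be told apart. Of 14 liver marker genes, 10 had a C57BL/6J peak within 1 kb of a transcription start, with percentiles between 14.1 (Tat) and 84.2 (Hnf4a), but the starts of Alb, Afp, Cps1 and Fgb had none. No start of the 8 Kupffer cell and macrophage markers or the 8 stellate cell markers had a C57BL/6J peak. Of 9 endothelial markers 1 (Tek) and of 11 lymphocyte and neutrophil markers 1 (Elane) had one.

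The sequences below are examples from the 2 C57BL/6J classes, all but that of Nr0b2 from the 12 leading sites of their class. Of the 12 leading C57BL/6J-only sites 8 lay in repeated DNA, so the windows shown do not give the proportions of the class. Each is the central 200 bases of its site on mm9 (the NCBIM37 assembly), plus strand, and capitals mark matches to 8 transcription factor motifs that were searched on both strands: STAT (TTCNNNGAA), HNF4A (CAAAGTCCA), FOXA (TGTTTAC), C/EBP (TTGCNNAA), the CTCF core (AGGNGGC), ETS (CCGGAAGT), CRE (TGACGTCA) and the E-box (CACGTG). Where matches overlap, their capitals run together. First come 5 sites called in C57BL/6J only, named by the gene with the nearest start.
Rbp4, chr19:38194552-38194751: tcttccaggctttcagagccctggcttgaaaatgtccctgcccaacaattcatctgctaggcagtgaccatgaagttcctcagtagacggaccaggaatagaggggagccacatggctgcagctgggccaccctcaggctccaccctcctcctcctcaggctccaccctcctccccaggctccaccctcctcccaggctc
H2-K1, chr17:34118233-34118432: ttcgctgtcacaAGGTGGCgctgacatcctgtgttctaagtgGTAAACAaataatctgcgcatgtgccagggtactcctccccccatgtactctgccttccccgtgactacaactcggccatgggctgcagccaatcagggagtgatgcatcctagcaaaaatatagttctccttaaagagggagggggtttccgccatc
BC048679, chr7:88668235-88668434: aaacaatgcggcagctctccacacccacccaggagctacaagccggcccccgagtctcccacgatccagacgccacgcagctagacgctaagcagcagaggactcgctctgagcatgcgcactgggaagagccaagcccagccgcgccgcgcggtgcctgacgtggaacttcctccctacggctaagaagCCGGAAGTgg
Nr0b2, chr4:133108068-133108267: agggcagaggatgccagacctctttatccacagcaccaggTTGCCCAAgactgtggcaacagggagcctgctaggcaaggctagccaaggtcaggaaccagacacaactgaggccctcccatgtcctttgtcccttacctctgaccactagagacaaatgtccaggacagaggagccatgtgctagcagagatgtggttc
9230019H11Rik, chr10:7233531-7233730: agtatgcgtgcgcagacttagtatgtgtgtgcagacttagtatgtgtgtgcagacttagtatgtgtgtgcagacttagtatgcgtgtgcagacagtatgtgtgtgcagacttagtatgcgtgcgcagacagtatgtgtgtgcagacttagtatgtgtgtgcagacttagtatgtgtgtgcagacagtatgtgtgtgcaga
The windows of H2-K1, BC048679 and Nr0b2 are of mixed sequence, that of Rbp4 ends in a short unit repeated a few times, and that of 9230019H11Rik is a short unit repeated head to tail, with the letters gtgcagac 8 times in 200 bases. The next 3 windows were missing in C57BL/6J only.
Adh7, chr3:137875470-137875669: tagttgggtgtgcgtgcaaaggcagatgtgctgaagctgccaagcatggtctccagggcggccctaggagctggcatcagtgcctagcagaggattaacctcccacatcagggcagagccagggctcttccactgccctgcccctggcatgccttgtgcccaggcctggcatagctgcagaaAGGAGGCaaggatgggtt
Pde6h, chr6:136903330-136903529: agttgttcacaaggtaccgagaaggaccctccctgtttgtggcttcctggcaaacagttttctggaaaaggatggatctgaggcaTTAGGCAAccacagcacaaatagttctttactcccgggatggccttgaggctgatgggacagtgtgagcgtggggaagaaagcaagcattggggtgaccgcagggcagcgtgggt
Ehhadh, chr16:21818294-21818493: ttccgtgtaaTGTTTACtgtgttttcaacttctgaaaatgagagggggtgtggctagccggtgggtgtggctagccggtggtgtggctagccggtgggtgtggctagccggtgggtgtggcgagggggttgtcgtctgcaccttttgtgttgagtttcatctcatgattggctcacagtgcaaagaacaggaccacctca
The Adh7 and Pde6h windows are of mixed sequence, and the Ehhadh window holds a FOXA match and a short unit repeated several times. The last 2 windows lie 97 kb apart on chromosome 6 and belong to opposite classes. The one nearest to Pdia4 was called in C57BL/6J only, and the one nearest to Ezh2 was missing in C57BL/6J only.
Pdia4, chr6:47698387-47698586: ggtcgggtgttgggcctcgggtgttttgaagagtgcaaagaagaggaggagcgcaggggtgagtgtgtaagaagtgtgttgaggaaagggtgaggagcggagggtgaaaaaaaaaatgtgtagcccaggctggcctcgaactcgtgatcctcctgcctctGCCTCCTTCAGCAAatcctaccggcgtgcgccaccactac
Ezh2, chr6:47600739-47600938: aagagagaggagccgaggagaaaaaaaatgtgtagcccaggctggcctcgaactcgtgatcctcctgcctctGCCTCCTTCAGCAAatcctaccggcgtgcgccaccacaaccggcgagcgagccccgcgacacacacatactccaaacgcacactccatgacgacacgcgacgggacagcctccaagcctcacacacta
They share an identical run of 89 bases. A match is a description of letters and not a bound site.

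Called in C57BL/6J only were mostly weak, distal sites. The 1653 sites make up 3.3% of all sites (exact 95% interval 3.14 to 3.46), against 1.97% (CBA/J) to 14.1% (A/J) for the single-strain sites of the other strains, of which only A/J and AKR/J had more. All intervals are Clopper-Pearson intervals and cover counting error only. The median C57BL/6J percentile was 15.8, and 1154 sites (69.8%) lay under percentile 25. At or above percentile 50 lay 130 sites, or 7.86%, against 0.193% (C3H/HeJ) to 10.4% (A/J) of the single-strain sites of the other strains. C57BL/6J thus had more strong single-strain sites than every other strain except A/J, with 130 against 2 (C3H/HeJ) to 65 (DBA/2J), and 739 in A/J. A peak of another strain lay within 500 bp of 272 of the 1653 sites (16.5%).

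**Figure D1:**
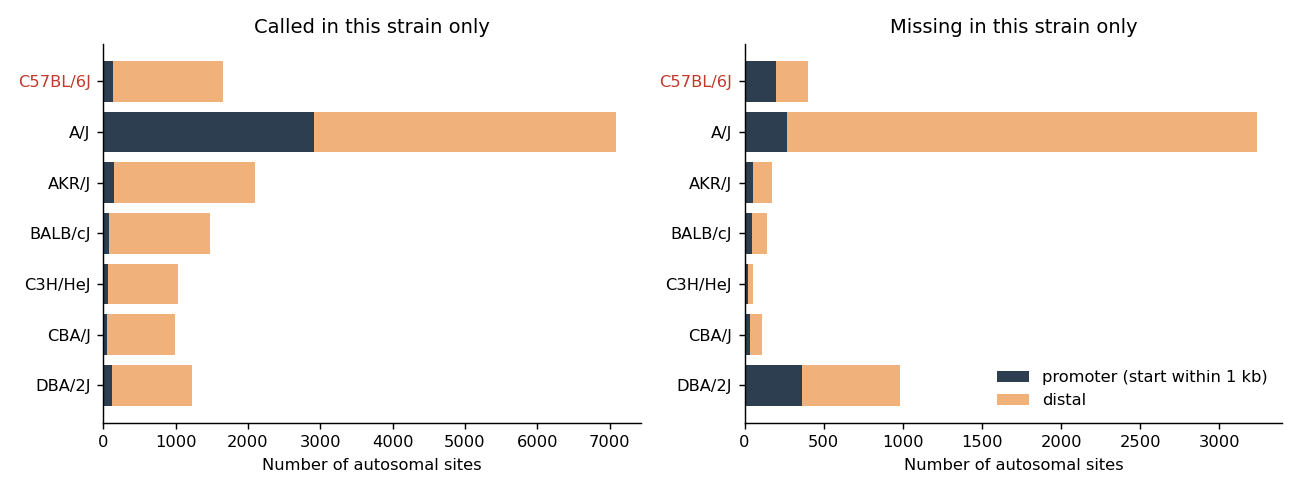
Number of autosomal sites called in 1 inbred strain only (left) and missing in 1 inbred strain only (right), C57BL/6J at the top and the 6 other strains below. Dark bars are promoter sites, with the start of a protein-coding transcript within 1 kb, and light bars are distal sites. C57BL/6J had 1653 and 403 sites, A/J stood apart with 7084 and 3237, and 49.6% of the sites missing in C57BL/6J were promoters.

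By place, 131 of the C57BL/6J-only sites were promoter sites (7.92%, interval 6.67 to 9.33) and 1522 were distal, against 30.6% promoter sites among all sites. Leaving out A/J, the single-strain sites of the other 5 strains had 6.66% promoter sites, so a low promoter share is shared by most single-strain sites. Introns held 702 (42.5%) and intergenic DNA 773 (46.8%) of the C57BL/6J-only sites. Their median width was 250 bp, against 494 bp for all sites, and their GC content averaged 51.03 ± 3.86% (SD over sites), against 56.9 ± 8.89%. C/EBP letters stood in 12.6% of the windows (all sites, 8.99%), STAT letters in 7.44% (4.92%), FOXA letters in 4.05% (3.25%) and the CTCF core in 19.0% (24.7%). These shares lay within the range of the other strains' single-strain sites, which was 3.28% (A/J) to 22.3% (AKR/J) for C/EBP and 2.70% (A/J) to 8.78% (AKR/J) for STAT. HNF4A letters stood in 1.63% (all sites, 1.19%), ETS letters in 0.484% (1.27%), CRE letters in 0.424% (0.627%) and the E-box in 4.96% (5.72%).

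Sites missing in C57BL/6J only were of another kind. The 403 sites, 0.804% of all sites (interval 0.728 to 0.886), were promoters in 200 cases (49.6%, interval 44.6 to 54.6) and distal in 203. Among sites missing in 1 other strain, the promoter share was 8.25% (A/J) to 37.0% (C3H/HeJ, with 54 sites and an interval up to 51.3). In the 6 strains that had a peak, the median of the mean percentile was 37.2, and 66 sites (16.4%) averaged 50 or more. GC content averaged 63.0 ± 8.58%, above the 50.8% (A/J) to 60.3% (DBA/2J) of the sites missing in 1 other strain. A C57BL/6J peak lay within 500 bp of 48 of these sites (11.9%).

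Absence of promoter peaks was often shared with DBA/2J. A further 976 sites were missing in C57BL/6J and 1 other strain, and in 595 of them that strain was DBA/2J, against 19 (C3H/HeJ) to 181 (A/J) for the other 5. The 595 sites were 56.0% promoters with a GC content of 64.95%, whereas the 181 sites missing in C57BL/6J and A/J were 5.52% promoters with 52.3% GC. Without DBA/2J among the strains, the sites missing in C57BL/6J only numbered 998. DBA/2J had the shortest list, with 26769 peaks. With every list shortened to that length, 479 sites were missing in C57BL/6J only. Sharing of called sites was more even, with 1787 sites called in C57BL/6J and 1 other strain, 180 of them with C3H/HeJ and 401 with CBA/J at the ends of the range.

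The strongest C57BL/6J-only sites were distal, and 8 of the 12 with the highest percentile lay in repeated DNA. Repeated here means that at least 50% of the 31-base words of a site occur more than once in the genome, which held for 112 of the 1653 sites (6.78%, interval 5.61 to 8.10), against 1.52% (CBA/J) to 13.9% (DBA/2J) of the other strains' single-strain sites and 2.36% of all sites. The highest percentile, 99.5, belonged to chr10:7233404-7233858, in the repeat array 6702 bp upstream of 9230019H11Rik, where 3 more sites reached 97.0, 87.7 and 82.5. None of these 4 had a peak in either recombinant strain. Near Pdia4, which encodes a protein disulfide isomerase of the endoplasmic reticulum, 2 sites more than 64 kb downstream of the start reached 99.3 and 91.0, and the part of reads placed elsewhere in the repeat was not tested. The sites nearest to the vomeronasal receptor gene Vmn1r124 (89.8) (5188 bp upstream) and to the neurturin receptor gene Gfra2 (88.3, but 519832 bp from its start) were also repeated. BXH2/TyJ had a peak at both, at 66.0 and 55.8.

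Outside repeats, the leading C57BL/6J-only site lay in an intron of Rbp4, the gene of the plasma carrier of retinol made by hepatocytes. It spans 649 bp (chr19:38194328-38194976), 4325 bp downstream of the start, and stood at percentile 93.8 in C57BL/6J, with no peak in the other 6 strains, BXH2/TyJ or BXH19/TyJ. H2-K1, a classical class I histocompatibility gene, had a site 18476 bp downstream of its start at percentile 92.0 in C57BL/6J, which was called at 87.9 in BXH19/TyJ and not in BXH2/TyJ. This site is intergenic and 36.7% of its words were repeated, and whether its reads belong to similar sequence elsewhere was not tested. A site 8229 bp downstream of the start of Pisd, which encodes a mitochondrial enzyme of phospholipid synthesis, stood at 92.2 in C57BL/6J and 59.7 in BXH2/TyJ. The site upstream of BC048679 stood at 87.7 in C57BL/6J, against 5.69 in BXH2/TyJ. These 4 sites therefore had 3 different patterns in the recombinant strains: absent from both, present in BXH19/TyJ, or present in BXH2/TyJ. Further sites outside repeats lay near Emp1 (81.8 in C57BL/6J, 57.6 in BXH2/TyJ and 59.8 in BXH19/TyJ, 176435 bp from the start), Gm13152 (78.5) and Adam24 (77.7 in C57BL/6J, 21.4 in BXH2/TyJ). An intron site of Tbc1d1, a Rab GTPase-activating gene of insulin-regulated glucose uptake, stood at 76.6 in C57BL/6J, with no peak in either recombinant strain.

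Promoter members of the class were few and included genes of hepatic detoxification and bile acid control. The strongest was at the start of 4930481A15Rik (percentile 78.4), followed by Gsta4, which encodes a glutathione S-transferase that detoxifies products of lipid peroxidation (70.5). Nr0b2, which encodes the bile-acid-induced repressor SHP, had a C57BL/6J-only site 912 bp upstream of its start at percentile 58.4, called at 32.2 in BXH2/TyJ. Within 500 bp of this site, a peak over the start of Nr0b2 was called in all 7 strains. It stood at 84.1 in C57BL/6J and between 75.5 (C3H/HeJ) and 86.0 (BALB/cJ) in the others. Methyltransferase genes were among the first 7 promoters as well, with Inmt at 59.5 and Nnmt, which methylates nicotinamide, at 58.0. 4930481A15Rik, Inmt and Nnmt were singled out after their values were seen. Of 130 C57BL/6J-only sites at or above percentile 50, 11 were promoters.

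Among 14 lists of liver genes, fat synthesis had the largest share of genes with a C57BL/6J-only site. The liver markers, a list kept apart from these, had a larger share, with 8 of 14 genes (57.1%). Their C57BL/6J-only sites were 9.80% of the sites of that list. Single-strain sites of the other strains fell on 0 (CBA/J) to 6 (BALB/cJ) of the markers. A site was assigned to the gene with the nearest start within 50 kb, and by this rule 5.35% of 21275 autosomal protein-coding genes had a C57BL/6J-only site and 1.7% a site missing in C57BL/6J only. Of the 25 genes of fatty acid and triglyceride synthesis, 9 had a C57BL/6J-only site (36.0%). These sites were 5.71% of the sites of the list, against 3.14% over all genes. By share of sites, conjugation enzymes (8.89%), serpins and carboxylesterases (8.46%) and genes known to differ between inbred strains (11.3%) stood above fat synthesis. The last of these lists includes Adi1, whose locus the paper drew as an example of variable chromatin in these same data. Its share is therefore not independent of the data. Lpin1, which encodes the phosphatidate phosphatase lipin-1, had one 789 bp downstream of its start (43.1) and one 29906 bp upstream (22.9), and the lipid droplet gene Plin2 had one 24960 bp upstream (42.5). Dgat2, Lpin2, Elovl6, Acaca, Cidec, Scd1 and Cideb had sites between percentiles 3.57 (Cideb) and 27.3 (Dgat2), so none of the 10 sites reached percentile 50. The single-strain sites of the other strains fell on 2 (DBA/2J) to 7 (A/J) of the same 25 genes. Thrsp, the lipogenic Spot 14 gene, had the only site of this list that was missing in C57BL/6J only, with percentiles between 4.96 (A/J) and 64.97 (BALB/cJ) and a mean of 41.0 in the 6 other strains.

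**Figure D2:**
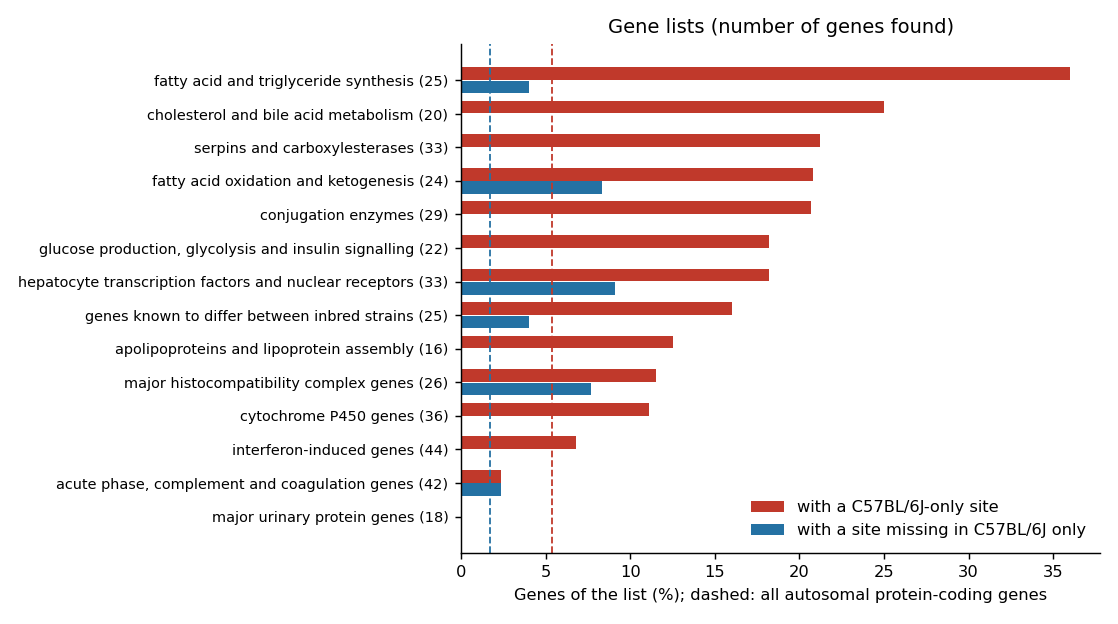
Share of the genes of each of 14 lists (number of genes found in parentheses) with a C57BL/6J-only site (upper bar) and with a site missing in C57BL/6J only (lower bar) nearest to their start within 50 kb. The separate list of liver markers is not drawn. Dashed lines give the shares over all 21275 autosomal protein-coding genes, 5.35% and 1.7%; the shares run up to 36.0% for fatty acid and triglyceride synthesis and down to 0 for the major urinary protein genes.

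Bile acid and cholesterol genes had 5 of 20 members with a C57BL/6J-only site. These sites were 4.65% of the sites of the list, against 3.14% over all genes. Beside Nr0b2, the 12-alpha-hydroxylase gene Cyp8b1 had 2 sites (40.6 and 28.0) and Nr1h4, which encodes the bile acid receptor FXR, had one in an intron (31.7). In the list of glucose metabolism (4 of 22 genes, but 2.72% of its sites), the glycogen-targeting subunit gene Ppp1r3b had a site 30711 bp upstream at 65.7, which had no peak in either recombinant strain. Fatty acid oxidation genes (5 of 24, and 4.48% of the sites of the list) had weak sites. The strongest was at Cpt1a (26.8), which encodes the gate of mitochondrial fatty acid uptake, and the next at the fasting hormone gene Fgf21 (17.4). In the same list Ehhadh, a peroxisomal beta-oxidation gene, had a site 30298 bp upstream that was missing in C57BL/6J and stood between 48.9 (BALB/cJ) and 74.7 (AKR/J) in the other 6 strains. A weak C57BL/6J peak (12.4) lay within 500 bp of it. At the start of Ehhadh all 7 strains had a peak, at 77.5 in C57BL/6J and between 81.2 and 89.0 in the others. An intron site of Ppara, the gene of the fatty acid receptor that drives this pathway, was missing in C57BL/6J with a mean percentile of 44.6 in the other 6 strains.

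Drug metabolism genes were represented mainly by conjugation enzymes, with 6 of 29 genes against 4 of 36 cytochrome P450 genes. By share of sites these were 8.89% and 4.90%, against 3.14% over all genes. Beside Gsta4, the Ugt1a locus, which encodes the enzymes that glucuronidate bilirubin and drugs, had 3 sites between 17.9 and 55.2. Between them lay sites that C57BL/6J shared with DBA/2J alone of the 7 strains. Of serpin and carboxylesterase genes 7 of 33 were hit, led by an intron site of the carboxylesterase gene Ces1b (69.8) and a site upstream of Serpina12, the gene of vaspin (53.1). For comparison, AKR/J-only sites fell on 17 of the 29 conjugation genes and 12 of the 36 cytochrome P450 genes. None of the 18 major urinary protein genes had a C57BL/6J-only site, whereas 7 had an AKR/J-only and 4 a DBA/2J-only site. Over the 14 lists together, 57 of 386 genes had a C57BL/6J-only site, which were 4.24% of the sites of these lists. Of all C57BL/6J-only sites they made up 4.23%, against 2.24% (A/J) to 6.44% (AKR/J) of the other strains' single-strain sites.

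Among regulators, 6 of 33 hepatocyte transcription factor and nuclear receptor genes had a C57BL/6J-only site, none above percentile 26.1 (Rxra). These were 1.74% of the 344 sites of the list, below the 3.14% over all genes. Of the 33, 3 had a site missing in C57BL/6J only, with mean percentiles in the other 6 strains of 47.3 at the start of Rora, 40.9 in an intron of Stat5b and 39.9 in an intron of Hnf4a. These were 0.872% of the sites of the list, near the 0.857% over all genes. Hnf4a thus had both kinds, and its C57BL/6J-only site was weak (1.82). Of immune genes, 3 of 26 histocompatibility genes (H2-K1, H2-Q7 and H2-D1; 4.48% of the sites of the list), 3 of 44 interferon-induced genes (4.41%) and 1 of 42 acute phase, complement and coagulation genes (0.862%) had a C57BL/6J-only site. The antiviral genes Rsad2 (21.2) and Apobec3 (17.4) had C57BL/6J-only peaks over their starts. The start of H2-Aa, a class II gene of antigen-presenting cells, was missing in C57BL/6J only, with percentiles between 10.9 and 51.1 in the other 6 strains. How many antigen-presenting cells the livers held was not tested.

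Adi1, a gene of the methionine salvage pathway, had 3 C57BL/6J-only sites. One lay 6220 bp downstream of the start, overlapped an exon and stood at percentile 68.7 in C57BL/6J and 60.3 in BXH2/TyJ, and 69.1% of its words were repeated. Another lay 23621 bp downstream of the start, in an intron of Ttc15, and stood at 55.8 in C57BL/6J and 57.7 in BXH2/TyJ. The last was weak (1.17). None of the 3 had a peak in BXH19/TyJ. At the start of Adi1 itself all 7 strains had a peak, at 45.2 in C57BL/6J, against 79.8 in A/J, 57.5 in AKR/J, 45.4 in BALB/cJ, 57.6 in C3H/HeJ, 43.2 in CBA/J and 15.4 in DBA/2J. C57BL/6J therefore lay within the range of the other strains at the start. Sites of all 7 strains farther downstream went both ways. C57BL/6J was above the other 6 at 22242 bp (82.35 against 36.3 to 76.9). It was below them at 22790 bp (28.1 against 30.1 to 79.0) and at 28834 bp (5.11 against 25.9 to 55.6). At 24665 bp C57BL/6J and DBA/2J had no peak, while the other strains did. Enpp1 and Ugt2b37 had no site of either C57BL/6J class.

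Of the 1653 C57BL/6J-only sites, 693 (41.9%) had another one within 100 kb, against 18.4% (CBA/J) to 76.5% (A/J) of the other strains' single-strain sites. The densest 1 Mb window was chromosome 1 from 90 to 91 Mb, with 18 C57BL/6J-only sites of 88 sites in all, against 0 to 6 single-strain sites of any other strain. From chr1:90112104 to chr1:90321522 they ran across the end of the Ugt1a locus, Heatr7b1, Hjurp, Trpm8 and Spp2, and 1 of them was repeated. Peaks of BXH2/TyJ lay at 14 of the 18 and of BXH19/TyJ at 1. Their C57BL/6J percentiles had a median of 23.3 and a maximum of 55.2, so this was a run of weak to middling sites. At the Ugt1a1 start itself C57BL/6J stood at 61.8, against 33.4 (C3H/HeJ) to 68.8 (DBA/2J) in the 5 other strains with a peak there. The site 1089 bp downstream of that start stood at 99.5 in C57BL/6J and 99.4 in DBA/2J, and between 19.0 and 87.2 in the other strains. Among the C57BL/6J-only sites of the Ugt1a end lay sites shared with DBA/2J alone, such as chr1:90114640 (33.3 and 70.6). A DBA/2J-only site (47.2) lay there too. Chromosome 5 from 93 to 94 Mb had 13 sites near Ccng2 and Gm16427, of which 12 were repeated and none was called in a recombinant strain. Of 3 windows with 10 sites each, that on chromosome 1 from 85 to 86 Mb had only repeated sites, and that on chromosome 4 from 137 to 138 Mb, around Hspg2, Alpl, Ece1 and Pink1, had none. Another strain had more single-strain sites than C57BL/6J in both of these windows, 17 and 15. That on chromosome 12 from 25 to 26 Mb, where no other strain had more than 3, had no repeated site, lay around Klf11, Cys1, Rrm2 and Id2, and had 6 sites with a BXH2/TyJ peak and none with a BXH19/TyJ peak. Klf11, a Kruppel-like transcription factor gene, held the strongest site there, in an intron at percentile 72.7.

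The 403 sites missing in C57BL/6J only numbered at most 4 in a window. That window, chromosome 8 from 126 to 127 Mb, held sites at Rhou, Rab4a and Pgbd5, and both recombinant strains had a peak at all 4. By chromosome, C57BL/6J-only sites were 2.20% of the sites of chromosome 11 (interval 1.77 to 2.69) and 4.83% of those of chromosome 14 (interval 3.87 to 5.96).

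Among the 12 leading sites missing in C57BL/6J only, 5 were promoters, and BXH2/TyJ and BXH19/TyJ both had a peak at 10. The remaining 2, near Adh7 and Pde6h, had no peak in either recombinant strain. The Adh7 site (chr3:137875345-137875795) lies 4992 bp upstream of this alcohol dehydrogenase gene and stood at 63.6 in A/J, 81.9 in AKR/J, 88.3 in BALB/cJ, 89.6 in C3H/HeJ, 81.5 in CBA/J and 72.1 in DBA/2J. All 6 strains with a peak thus placed it above percentile 50 of their lists. The Pde6h site (chr6:136903151-136903708) lies in an intron, 107 bp downstream of the start of this phosphodiesterase subunit gene, and stood at 49.6 in A/J, 76.6 in AKR/J, 46.2 in BALB/cJ, 78.0 in C3H/HeJ, 82.0 in CBA/J and 77.7 in DBA/2J. Neither site held repeated words.

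The other 4 promoters among the 12 were called in both recombinant strains. The start of Phlda1, a gene of a pleckstrin-homology protein, had a mean percentile of 70.7 in the 6 other strains and stood at 89.3 in BXH2/TyJ and 81.7 in BXH19/TyJ. A weak C57BL/6J peak (2.86) lay within 500 bp of it. Ap2a2, a clathrin adaptor subunit gene (66.7), Acot7, an acyl-CoA thioesterase gene (65.8), and the mismatch repair gene Msh6 (64.8) had like means, and their GC content was 70.0% to 74.0%. DBA/2J was the lowest of the 6 strains at each of these 4 promoters, with 12.5 (Msh6) to 40.5 (Ap2a2). Of the 12 sites, 2 were repeated, near Gm10716 and Gng4. The Gng4 site was uneven, with 98.5 in A/J, 94.8 in AKR/J, 66.5 in BALB/cJ, 34.4 in C3H/HeJ, 98.2 in CBA/J and 56.2 in DBA/2J, and with 92.3 in BXH2/TyJ but 0.462 in BXH19/TyJ. Gm10716 had 99.9 in 5 strains but 24.7 in C3H/HeJ, and lay 1900 bp upstream of the gene on chromosome 9. C57BL/6J peaks lay close by, one within 500 bp (77.4) and one over the start of the gene (99.9). With a peak within 500 bp counted as called, 9 of the 12 sites remained, without those of Gm10716, Phlda1 and Ehhadh. Among the distal sites without repeats, that at Pdcd4, a translation inhibitor gene, stood between 42.7 (A/J) and 83.3 (C3H/HeJ) in the 6 strains and at 71.9 in BXH2/TyJ and 73.2 in BXH19/TyJ.

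**Figure D3:**
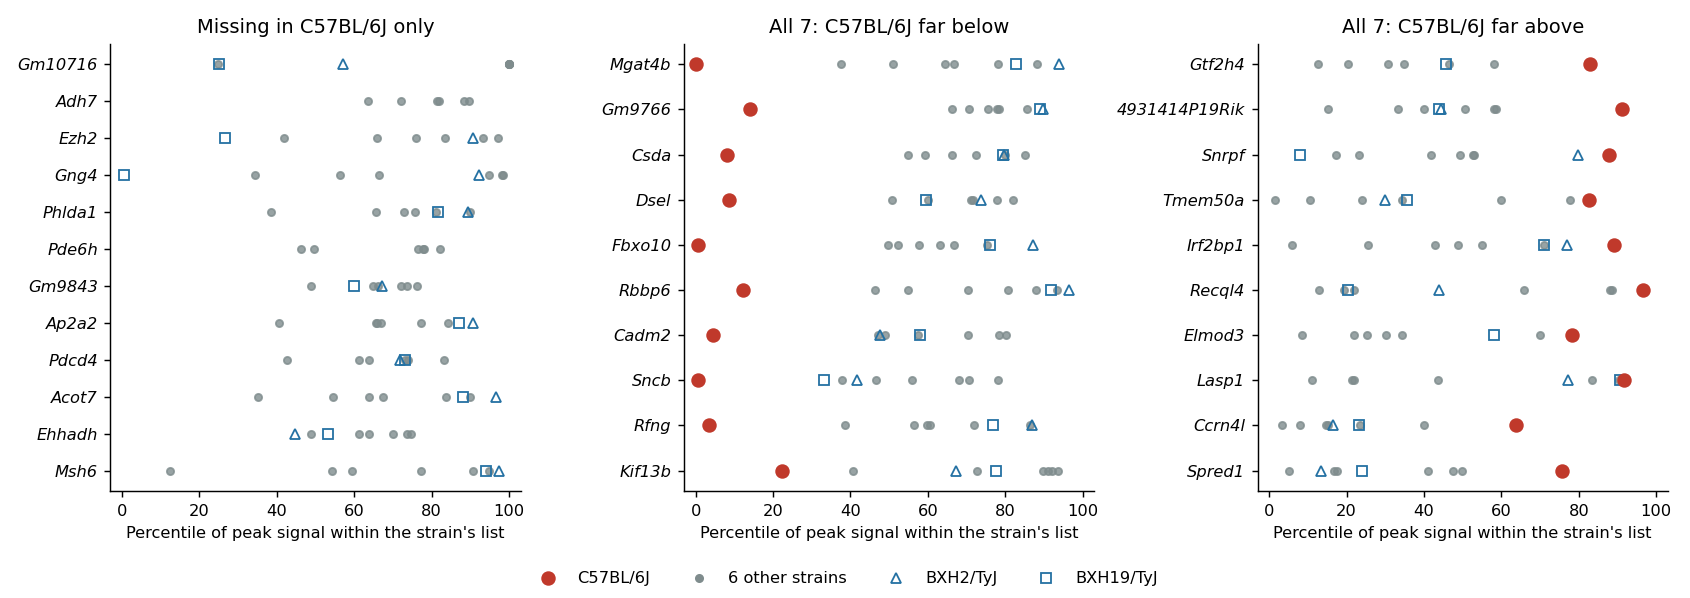
Percentile of the peak signal within each strain's own list at the 12 leading sites missing in C57BL/6J only (left), and at the 10 sites of all 7 strains where C57BL/6J stood farthest below (middle) and above (right) the mean of the other 6. Red points are C57BL/6J, grey points the 6 other strains, triangles BXH2/TyJ and squares BXH19/TyJ, with no symbol where there was no peak. At Adh7 and Pde6h neither recombinant strain has a symbol, and at the 10 sites of the middle panel both lie to the right of C57BL/6J.

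At sites called in all 7 strains, C57BL/6J ranked lower at promoters than at distal sites when set against the other 6. The difference was the C57BL/6J percentile minus the mean percentile of the other 6 strains, and is a difference of ranks, not of accessibility. It ran between -64.3 and 49.1, with a median of 0.15 and an SD over sites of 13.8. Promoter sites (8347 of the 13909) averaged -3.58 ± 12.6 and distal sites 2.91 ± 14.6 (SD over sites). The same distal mean was higher in C3H/HeJ (6.26), CBA/J (4.90) and BALB/cJ (3.98). It was lower in AKR/J (1.80), DBA/2J (-5.39) and A/J (-14.5), so a positive distal mean was not particular to C57BL/6J. The promoter mean minus the distal mean was -6.49 in C57BL/6J, the lowest of the 7 strains, against -5.30 (C3H/HeJ) to 18.2 (A/J). It was below 0 in BALB/cJ (-4.16) and CBA/J (-3.79) as well. C57BL/6J was the highest of the 7 strains at 2056 sites (14.8%) and the lowest at 2480 sites (17.8%), where an equal share among 7 strains is 14.3%. Promoters were 45.9% of the first group and 77.1% of the second, the highest promoter share of any strain's lowest sites (41.0% in A/J to 74.7% in CBA/J). Without A/J, C57BL/6J was the highest of 6 at 3574 sites, and without DBA/2J the lowest of 6 at 4013 sites. These 2 counts are over the sites called in all 6 strains kept, not over the 13909, and an equal share among 6 strains is larger. They cannot be set directly against 2056 and 2480.

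This split moved with GC content. Where GC content was 65% or more, the mean difference was -6.05 at promoters and -6.95 at distal sites. At 45 to under 55% GC it was 3.13 at promoters and 7.10 at distal sites. Within a GC range, promoters and distal sites thus lay closer together than over all sites. A/J had the opposite course, with a mean difference of -21.3 at 45 to under 55% and 9.54 at 65% or more, and DBA/2J was below 0 in both (-3.18 and -6.05). The part of GC content, the base composition of the libraries or their amplification in the difference was not tested.

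**Figure D4:**
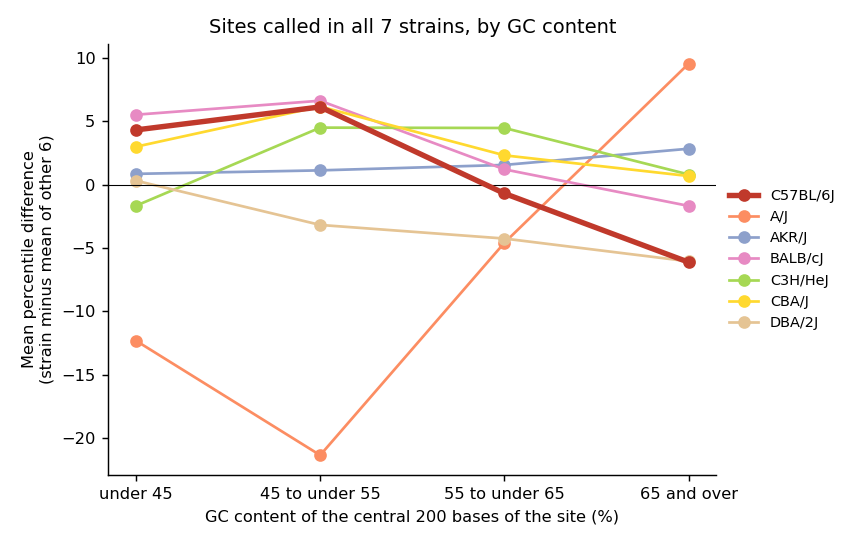
Mean percentile difference (strain minus the mean of the other 6) at the sites called in all 7 strains, on the vertical axis, by GC content of the central 200 bases of the site, on the horizontal axis, with a line per strain. C57BL/6J (thick line) is at 6.12 at 45 to under 55% GC and at -6.12 at 65% and over.

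Distal sites of listed lipid and drug metabolism genes had positive median differences of varied size. At the 29 distal sites of fatty acid and triglyceride synthesis genes called in all 7 strains, the median difference was 8.36, and at 31 of cholesterol and bile acid genes 7.60, against 3.93 over the distal sites of all genes. The 12 distal sites of cytochrome P450 genes had a median of 13.5, whereas 22 of fatty acid oxidation genes (2.27) and 9 of conjugation enzyme genes (2.78) lay below the value over all genes. Promoters of the first 3 lists had medians of -2.91 (24 sites), -0.73 (12) and 7.87 (5), against -1.20 over all promoters. Promoters of interferon-induced genes had a median of 7.06, and C57BL/6J was the highest of the 7 strains at 8 of 17, against 944 of all 8347 promoters. Promoters of hepatocyte transcription factors and nuclear receptors had a median of -4.44 (33 sites), with C57BL/6J highest at 1. It was lowest at 6 of the 33, a smaller share than its 1912 of all 8347 promoters.

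The 10 sites where C57BL/6J stood lowest were below all 6 other strains, and 8 were promoters. At the start of Mgat4b (chr11:50037849-50039851), which encodes an N-acetylglucosaminyltransferase of N-glycan branching, C57BL/6J stood at 0.0556, against 88.2 in A/J, 64.5 in AKR/J, 66.7 in BALB/cJ, 51.1 in C3H/HeJ, 78.2 in CBA/J and 37.4 in DBA/2J. BXH2/TyJ (93.9) and BXH19/TyJ (82.7) were with the other strains. At the start of Csda, the gene of a cold-shock domain DNA-binding protein, C57BL/6J stood at 8.21 and the others between 54.8 and 85.1. Fbxo10 (0.614 in C57BL/6J, 49.7 to 75.4 in the others), Rbbp6 (12.1 against 46.4 to 93.3), Rfng (3.57 against 38.5 to 86.4) and Kif13b (22.3 against 40.7 to 93.7) had the same pattern. Both recombinant strains had a peak at all 10 sites, at a median percentile of 83.3 in BXH2/TyJ and 77.2 in BXH19/TyJ. The 10 windows averaged 71.1% GC.

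The 10 sites where C57BL/6J stood highest were above all 6 other strains, and 4 were promoters. Gtf2h4, which encodes a subunit of the general transcription and repair factor TFIIH, had 82.9 in C57BL/6J, against 30.8 in A/J, 46.5 in AKR/J, 20.4 in BALB/cJ, 12.6 in C3H/HeJ, 34.8 in CBA/J and 58.0 in DBA/2J. Snrpf, a spliceosome core gene, stood at 87.8 in C57BL/6J, against 17.2 to 53.0 in the others, and at 79.7 in BXH2/TyJ but 8.02 in BXH19/TyJ. The site upstream of Ccrn4l, the gene of the circadian deadenylase nocturnin, stood at 63.8 in C57BL/6J and 3.39 to 40.1 in the others, but its difference of 46.3 was 17.4 where each strain's peak with the largest overlap was taken. The sites of Lasp1 (91.7 against 11.2 to 90.3) and Recql4 (96.7 against 12.7 to 88.7) came near another strain. These 10 windows averaged 56.3% GC, so the leading sites in the 2 directions differed in base composition.

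Most C57BL/6J-only sites had no peak in the recombinant strains. Of all sites, 54.7% had a peak in BXH2/TyJ and 55.7% in BXH19/TyJ. Of the C57BL/6J-only sites, 255 (15.4%, interval 13.7 to 17.3) had a BXH2/TyJ peak and 214 (12.9%, interval 11.4 to 14.7) a BXH19/TyJ peak. Both had a peak at 56 sites, and neither at 1240 (75.02%). Single-strain sites of the 5 strains that are not parents (12875 sites pooled) had a BXH2/TyJ peak in 12.6% and a BXH19/TyJ peak in 8.69%. The differences of 2.78 and 4.26 percentage points rested on which strains were pooled. Without AKR/J the first was 0.566 points, and without A/J the second was -4.60 points. By autosome, the C57BL/6J-only share was higher on 13 of 19 for BXH2/TyJ and on 12 of 19 for BXH19/TyJ. Among the 5 strains, the shares ran between 1.24% (AKR/J) and 17.3% (CBA/J) in BXH2/TyJ and between 1.45% (A/J) and 31.5% (AKR/J) in BXH19/TyJ, so that C57BL/6J lay within the range in both.

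**Figure D5:**
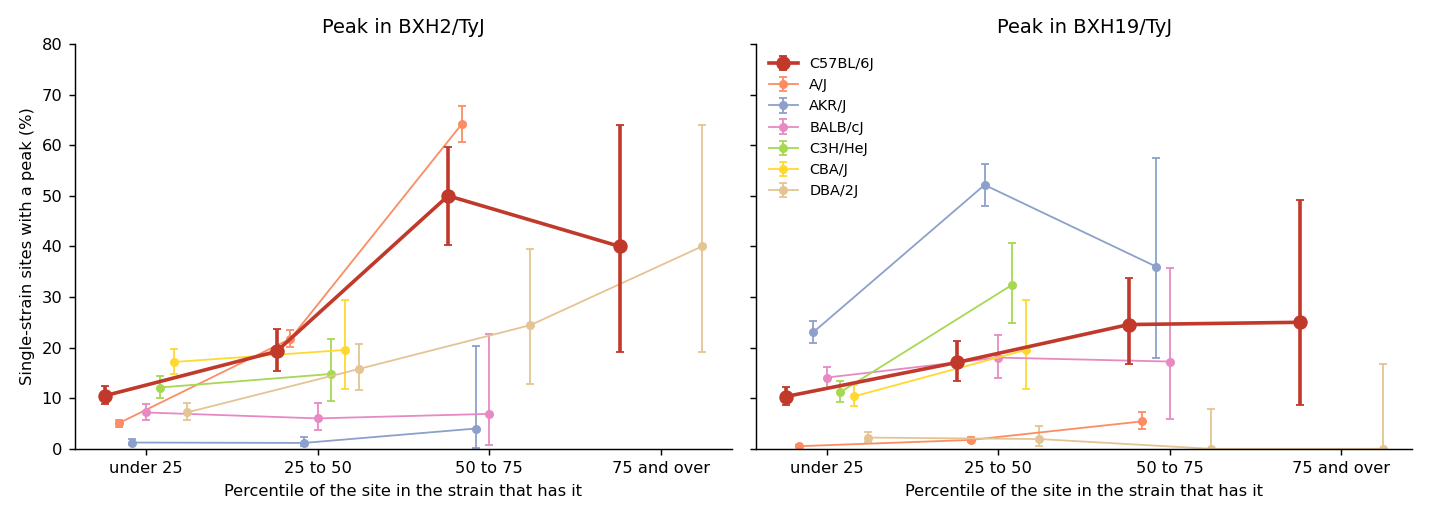
Share of single-strain sites with a peak in BXH2/TyJ (left) and BXH19/TyJ (right), by percentile of the site in the strain that has it, for bins of at least 20 sites. Points are shares and bars exact 95% intervals. C57BL/6J (thick line) is at 10.5% under percentile 25 and at 55 of 110 sites between 50 and 75 in BXH2/TyJ, and at 10.3% and 24.5% in BXH19/TyJ.

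Stronger C57BL/6J-only sites were recovered more often. Under percentile 25, 10.5% had a BXH2/TyJ peak and 10.3% a BXH19/TyJ peak (1154 sites). At percentile 50 and over, 63 of 130 (48.5%, interval 39.6 to 57.4) had a BXH2/TyJ peak and 32 (24.6%, interval 17.5 to 32.9) a BXH19/TyJ peak. In A/J, which is not a parent, 64.1% and 5.41% of the 739 single-strain sites in this range did.

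Of the sites missing in C57BL/6J only, 366 (90.8%) had a BXH2/TyJ peak and 348 (86.4%) a BXH19/TyJ peak, 325 had both and 14 had neither. Sites missing in 1 of the 5 strains that are not parents (4642 sites, 3237 of them from A/J) had a BXH2/TyJ peak in 88.0% and a BXH19/TyJ peak in 94.6%, differences of 2.80 and -8.24 points. Single strains ran between 86.0% (BALB/cJ) and 94.3% (AKR/J) in BXH2/TyJ and between 72.2% (CBA/J) and 96.2% (A/J) in BXH19/TyJ, with C57BL/6J inside both ranges. At sites with a mean percentile of at least 50 the BXH2/TyJ difference was -6.90 points.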

How the data were processed

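FAIRE-seq of liver was carried out on 2 male mice of each of 9 strains. The authors mapped reads with bowtie1 to mm9 carrying the SNPs of each strain (for the recombinant strains, mm9 and the C3H/HeJ version), kept reads with a single location, called peaks per library with F-seq and combined both replicates with IDR. Neither tool versions nor an IDR threshold were found in the sources used here. Each deposited list holds, per peak, its start, end and the offset of its maximum, which are plain positions with no other unit, and the signal value of the authors' caller, a score on the scale of its own list. Lists of the most variable and most common sites hold the authors' own comparison and were not used. Since C57BL/6J is the reference strain, sequence that only other strains carry has no position on mm9, and the part of this in the classes was not tested.

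From the 9 lists, sites, calls and percentiles were computed as described. Promoters had the start of a protein-coding GENCODE M1 transcript within 1000 bp, genes were named by the nearest such start, and coordinates and sequences are those of NCBIM37, the assembly that is mm9. GC content and motifs were read in the central 200 bases. Named were the 12 leading sites of each of the first 2 classes, the 10 sites with the largest differences in each direction, the 3 densest windows, listed genes (up to 4 a list) and 3 loci drawn in the paper. Members and lists were chosen with earlier results of these data known. Of 447 listed symbols, 435 were found on autosomes. Alternatives used the 20000 strongest peaks, lists of equal length (26769 peaks), other overlaps, distances and gene types, and each other strain left out in turn. Fisher's exact test was fixed for the 4 comparisons with the recombinant strains, but since sites of 1 segment and 1 list are not independent, no p is given. Steps were tested on simulated data. Tools were Python 3.11.15, numpy 2.4.6, pandas 2.3.3, scipy 1.17.1, numba 0.67.0 and matplotlib 3.10.9.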

Additional observations from a re-analysis of the deposited data

Results flagged for a closer look

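A single strain lay far from the other 6 in 6 of 15 quantities examined by strain (the gap to the nearest other strain, divided by the whole range, was above Dixon's 95% critical value). Chance alone gives about 1 such group in 20. C57BL/6J was never that strain. A/J had 7084 sites called in it only, 3237 sites missing in it only, a promoter share of 41.1% among its single-strain sites, 3972 sites called in all 7 where it was highest, and a mean difference at promoters that was 18.2 percentile points above that at distal sites. DBA/2J had repeated sequence in 13.9% of its single-strain sites.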

How the results depend on the processing

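No paired analysis was possible because the deposited lists combine both replicates of a strain, and for the same reason no replicate could be left out. With the 20000 strongest peaks of each list of the 7 strains, 995 sites were called in C57BL/6J only. C57BL/6J was then the highest of 7 at 1270 sites, and the promoter share of sites missing in C57BL/6J only was 65.5%. The BXH2/TyJ difference at C57BL/6J-only sites was -4.28 points, with the lists of the recombinant strains left at full length. At sites at or above percentile 50, the BXH2/TyJ differences were -8.35 points at C57BL/6J-only sites and -6.90 points at sites missing in C57BL/6J only. The promoter share of C57BL/6J-only sites was 3.81% within 500 bp, 13.2% within 2000 bp and 11.9% with transcripts of every gene type. Leaving out 1 other strain at a time gave 424 to 998 sites missing in C57BL/6J only. Over the sites called in all strains kept, C57BL/6J was highest at 2183 to 3574 and lowest at 2580 to 4013. At C57BL/6J-only sites, leaving 1 strain out gave differences of 0.566 to 8.11 (BXH2/TyJ) and -4.60 to 8.68 points (BXH19/TyJ). At sites missing in C57BL/6J only, the BXH2/TyJ difference was 0.0715 to 3.57 points. In the other 85 of 100 recomputed values of these comparisons, counts stayed within 1.5 times, shares within their intervals and differences on their side of 0, and none of 167 recomputed differences at the 20 named sites turned its sign, although that at Ccrn4l was 17.4 in place of 46.3 with the peak of largest overlap and that at Gm9766 -71.5 in place of -61.7 with lists of equal length. Leaving out sites with repeated sequence, chosen after seeing the data, left 1541 C57BL/6J-only and 397 missing sites and 4 and 10 of the 12 leading sites of each. With the 20000 strongest peaks 12 and 10 of them remained, with peaks covering 25% of a site 12 and 11, and with a peak within 500 bp counted 12 and 9. The files give neither depth nor replicate spread, so weak sites called in 1 list cannot be told from sites just under the threshold in the others.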
